A study of Mus musculus with 18 samples.

Results

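Tight junction genes were measured by RNA sequencing of distal colon from BALB/c mice without interleukin 10, an anti-inflammatory cytokine whose absence is known to lead to colitis in mice. The set holds 10 of the 16321 genes of the deposited gene tables, chosen by symbol: the pore-forming claudins Cldn2 and Cldn15, the other claudins Cldn3, Cldn4, Cldn7, Cldn8 and Cldn23, and Ocln, F11r and Tjp1. All 10 passed the filter on low counts. In GENCODE M21 on GRCm38 the largest member genes span chr7:65296165-65527781 on the minus strand (Tjp1), chr13:100496507-100552718 on the minus strand (Ocln) and chr1:171437535-171464603 on the plus strand (F11r). Cldn3 (chr5:134986214-134987472, plus), Cldn4 (chr5:134945119-134946934, minus) and Cldn15 (chr5:136966616-136975858, plus) lie on 1 chromosome. Cldn2 (chrX:139800828-139811386, plus), Cldn7 (chr11:69964779-69967885, plus), Cldn8 (chr16:88560828-88563183, minus) and Cldn23 (chr8:35824712-35826559, minus) lie on 4 others. Il10KO mice were sampled at 6, 8, 10, 12 and 14 weeks of age and wild-type (WT) mice at 6 weeks, giving 6 groups of 3 mice and 18 libraries of polyadenylated RNA. Each library was made from a tissue biopsy of the distal colon, so epithelial and other cells were measured together. No WT mouse was sampled after week 6, so differences between later ages and week 6 cannot be told apart from those of age alone. All 3 WT mice shared cage G and the Il10KO mice came from other cages, so cage and genotype cannot be told apart either.

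Tight junctions close the gap between neighbouring epithelial cells just below their apical surface. Claudins are the membrane proteins that form their strands: some, such as claudin 2 and claudin 15, form channels for small cations and water, and others seal the gap. Occludin (Ocln) and junctional adhesion molecule A (F11r) are further membrane proteins of the junction, and ZO-1 (Tjp1) is the cytoplasmic scaffold that ties them to actin. Claudin 7 also lies along the lateral membrane of gut epithelium, claudin 8 is known for limiting the back-leak of sodium in the distal colon, and claudin 2 is mainly a protein of crypts.

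The promoters of the main pore-forming claudin, of the 2 most abundant claudins and of occludin are shown as RefSeq gives them for GRCm38.p6, each as the 250 bases before the first listed start. A promoter was found for 8 of the 10 genes. Capitals mark exact matches, on either strand, to the CDX motif TTTATG, the motif of GATA factors AGATAA, the HNF1 half-site GTTAAT, the STAT motif TTCNNNGAA, the GRHL half-site AACCGG, the TATA box TATAAA and the GC box of KLF factors GGGCGG, and no matches overlapped in these 4 windows.
Cldn2 at chrX:139800558-139800807, plus strand: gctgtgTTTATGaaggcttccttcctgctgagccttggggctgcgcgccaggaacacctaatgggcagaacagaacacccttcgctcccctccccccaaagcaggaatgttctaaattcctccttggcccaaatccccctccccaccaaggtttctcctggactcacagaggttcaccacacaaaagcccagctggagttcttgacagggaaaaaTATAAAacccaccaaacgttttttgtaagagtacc
Cldn7 at chr11:69964529-69964778, plus strand: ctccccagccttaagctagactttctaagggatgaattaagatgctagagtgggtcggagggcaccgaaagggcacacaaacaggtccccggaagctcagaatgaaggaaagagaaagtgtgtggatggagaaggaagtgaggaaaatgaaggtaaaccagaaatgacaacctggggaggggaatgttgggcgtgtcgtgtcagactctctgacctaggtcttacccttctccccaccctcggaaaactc
Cldn3 at chr5:134985964-134986213, plus strand: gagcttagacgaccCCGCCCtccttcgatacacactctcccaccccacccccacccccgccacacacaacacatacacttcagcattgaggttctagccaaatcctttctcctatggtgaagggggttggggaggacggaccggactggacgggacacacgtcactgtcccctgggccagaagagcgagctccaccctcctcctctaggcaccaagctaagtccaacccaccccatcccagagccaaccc
Ocln at chr13:100552719-100552968, minus strand: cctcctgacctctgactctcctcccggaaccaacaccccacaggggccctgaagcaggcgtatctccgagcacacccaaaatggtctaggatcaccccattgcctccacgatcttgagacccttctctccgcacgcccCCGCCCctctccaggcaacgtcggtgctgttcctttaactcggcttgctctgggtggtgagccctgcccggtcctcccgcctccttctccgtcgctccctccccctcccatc
The Cldn2 window holds a CDX match and a TATA match, which 10.8% and 12.4% of all 32851 promoter windows of this length also hold. The Cldn3 and Ocln windows each hold 1 GC box, a match found in 32.7% of all windows, and the Cldn7 window shown holds none of the 7 motifs. Among the windows shown, the GC content of Cldn7 is 51.2%, against 60.8% for Cldn3 and 64.0% for Ocln. It is 52.0% for Cldn2, with a median of 52.4% over all windows. These matches describe the letters only.

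Claudin RNA of the young knockout colon was mostly Cldn3 and Cldn7. Per length, in the deposited TPM (transcript abundance scaled to a fixed total) at Il10KO week 6, Cldn3 averaged 855 ± 88.9 and Cldn7 807 ± 47.8 (SD, n = 3), and their ranges overlapped. F11r followed at 213 ± 25.6 TPM, then Cldn8 at 141 ± 34.4 TPM, apart from it in every mouse. Cldn2 at 92.3 ± 6.79 TPM and Ocln at 90.6 ± 6.28 TPM overlapped each other. Cldn4 stood at 47.3 ± 6.10 TPM, Cldn23 at 33.7 ± 4.92 TPM and Tjp1 at 33.7 ± 1.19 TPM, and the last 2 overlapped. Cldn15 was the lowest of the set at 18.1 ± 5.32 TPM. Over all 18 libraries Cldn7 ranked 177th and Cldn3 216th of the 16321 genes by mean TPM.

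The libraries held 26495521 to 35497101 estimated counts each. Il10 itself had 0 estimated counts in all 15 Il10KO libraries and 1, 0 and 3 in WT libraries, too few to check the labels. Replicates 2 and 3 of week 14 stand apart: their RNA integrity numbers (RIN) were 6.5 and 5.8, against 8.4 to 9.3 elsewhere, and the neutrophil genes S100a8 and S100a9 took 0.876% and 0.666% of their counts. Replicate 1 of week 10, with a RIN of 8.5, came next at 0.422%, and every other library had 0.0167% or less. Replicate 1 of week 14 had a RIN of 9.0 and 6.12e-05% of its counts in these 2 genes, within the range of the week 6 knockouts.

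Changes with age varied with transcript length over all genes, the members included. On CPM (counts scaled to library size, with TMM factors between libraries), genes with effective lengths under 1000 bases had a median log2 change against week 6 of 0.80 (week 10), 0.88 (week 12) and 1.56 (week 14). Genes over 4000 bases had medians of -0.68, -0.70 and -0.99 at the same ages. The pattern was strongest in the 2 week 14 libraries of low RIN, where the shortest class stood 2.01 and 1.78 above the week 6 mean and the longest class stood at -1.84 and -1.71. It was also present at weeks 10 and 12, where every RIN was 8.5 or higher, and it was near 0 in replicate 1 of week 14 (0.13 and -0.15). Among the members Cldn7 and Cldn3 are short (effective lengths of 934 and 961 bases), F11r, Cldn4, Cldn23 and Cldn15 lie between 1412 and 1551 bases, Cldn8 has 2058, Cldn2 2593, Ocln 2639 and Tjp1 6202. The tests of the members, and the counts of the gene lists, are therefore set beside a fit on log2 CPM from which the relation with effective length had been removed in each library.

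**Figure D1:**
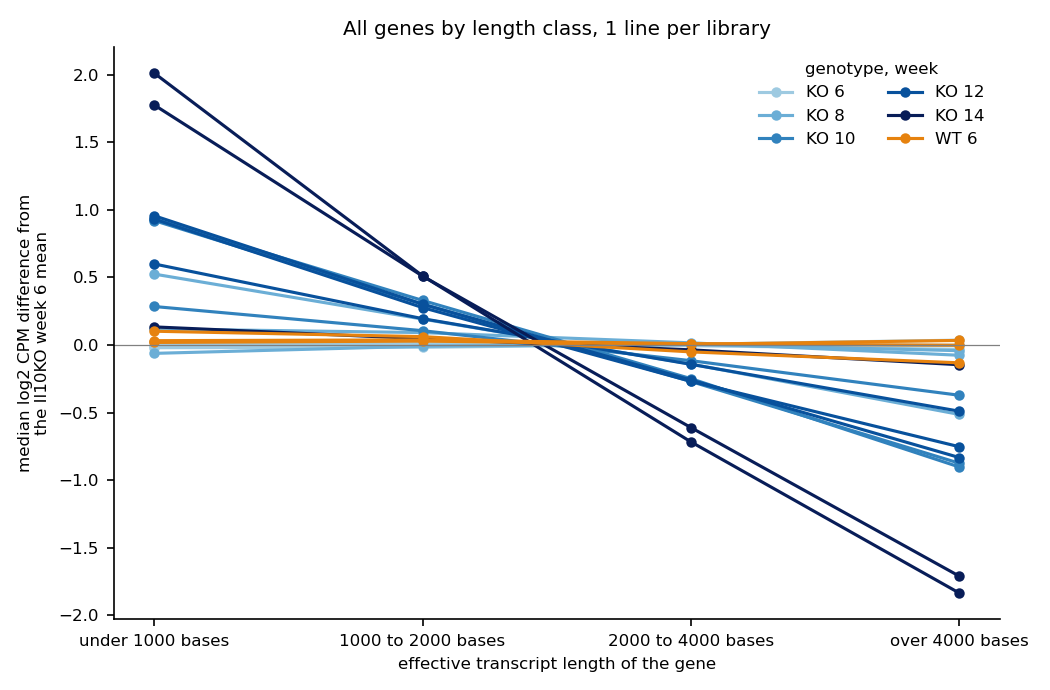
Median log2 CPM difference from the Il10KO week 6 mean (y axis) of all genes in 4 classes of effective transcript length (x axis), with 1 line for each library, coloured by genotype and week. The lines of the 2 low-RIN week 14 libraries run from 2.01 and 1.78 in the shortest class to -1.84 and -1.71 in the longest, and most week 10 and week 12 lines slope the same way.

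At the youngest age no member was called between Il10KO and WT mice (week 6) by edgeR's quasi-likelihood test with Benjamini-Hochberg adjustment at 0.05, where 0 of 16300 genes (0%) were called and 394 had an unadjusted p under 0.05, none of them a member. DESeq2 also called 0 members. Cldn4, which in epithelial cells acts as a sealing claudin, had the largest difference of the 10: 58.03, 48.2 and 48.4 CPM in Il10KO mice, against 90.0, 69.4 and 68.5 CPM in WT mice. The groups did not overlap, which holds for 25.4% of all genes, and the log2 fold change was -0.56 ± 0.63 (SE, adjusted p = 1). Cldn8 had 155, 269 and 204 CPM in Il10KO mice, against 153, 179 and 162 CPM in WT mice, and these groups overlapped. For the other 8 members the log2 fold change lay between -0.21 and 0.04.

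**Figure D2:**
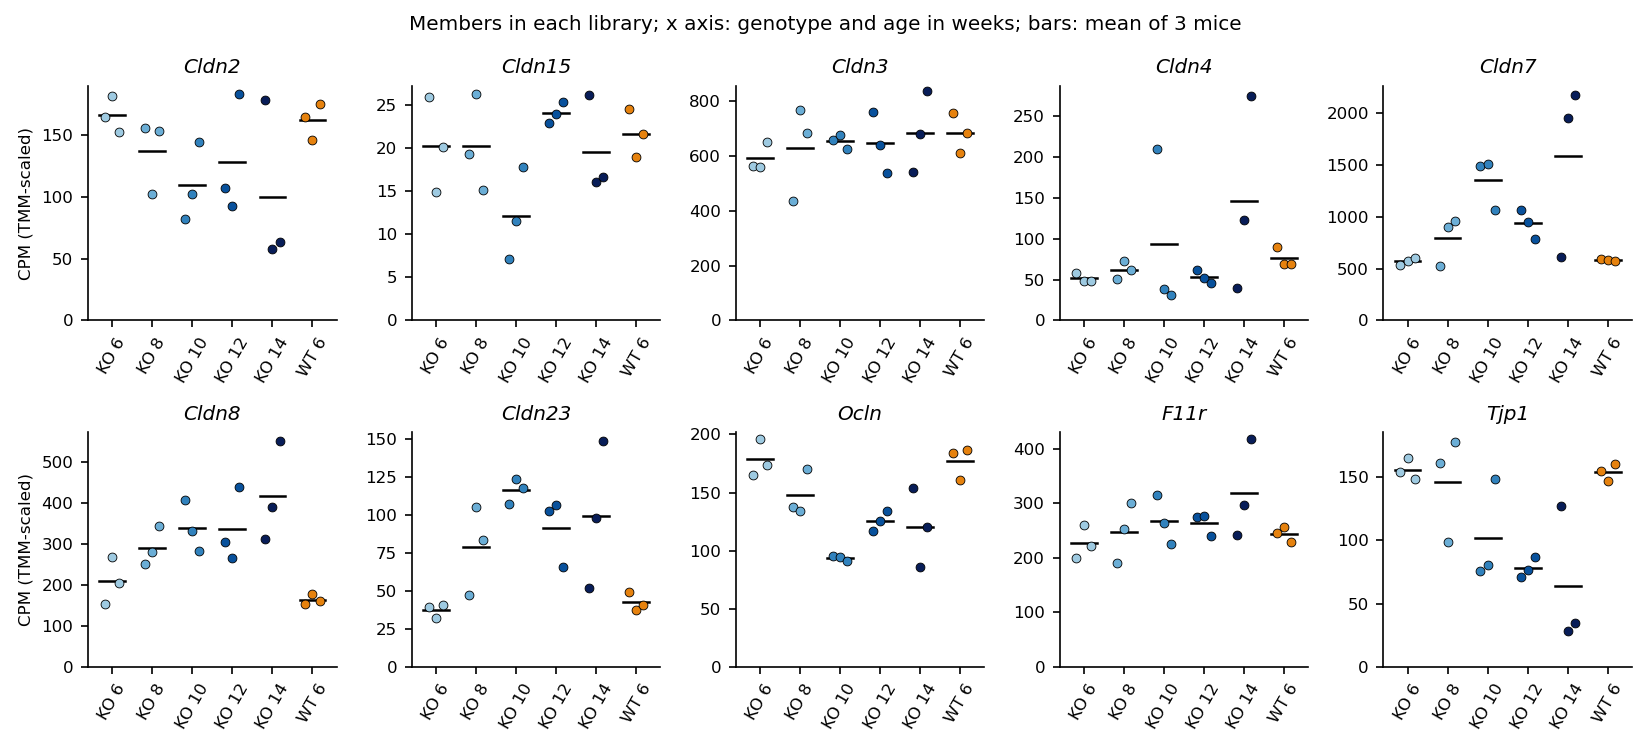
CPM (y axis, from 0) of each of the 10 members in every library, by genotype and week (x axis), with 1 point per mouse and a bar at the mean of 3 mice. Cldn7 at week 10 lies between 1067 and 1503 CPM and Ocln between 91.3 and 95.0 CPM, and replicates 2 and 3 of week 14 part from replicate 1 in several panels.

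Among the sealing claudins, on CPM, Cldn23 and Cldn7 rose at week 10 and at week 14, and Cldn8 at week 14. On log2(TPM + 1) the median of all genes shifted by -0.74 at week 14, and none of Cldn7, Cldn8 and Cldn23 was called higher at that age. On CPM, Cldn3 and Cldn4 were not called at any age. At week 10, 2 members were called higher and 1 lower than at week 6, and 24% of all 16300 genes were called in that comparison, 14.6% higher and 9.48% lower. At week 14, 3 were called higher and 2 lower, and 33.1% of all genes were called, 24.5% higher and 8.56% lower. On log2(TPM + 1) with limma, 2 higher and 1 lower were called at week 10, and 0 higher and 4 lower (Cldn2, Cldn3, Ocln and Tjp1) at week 14. The share of all genes called on that scale is not given here, and the median of all genes shifted by -0.74 on it at week 14. In bulk tissue, fewer cells of a type and less RNA per cell cannot be told apart.

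Cldn23, a claudin of differentiated gut epithelium in mouse and human, was the only member whose week 8 mice all lay outside the week 6 range on CPM; on TPM those of Ocln did too, below it. It had 39.5, 32.5 and 40.6 CPM at week 6 and 47.6, 106 and 83.9 CPM at week 8. At later ages it had 108, 124 and 118 CPM at week 10, 103, 107 and 65.8 CPM at week 12 and 51.8, 98.2 and 149 CPM at week 14. On CPM no mouse from week 8 on overlapped the week 6 knockouts. Such a gap to week 6 holds for 23.9% of all genes in week 8 mice, 57.8% in week 10 mice, 65.6% in week 12 mice and 40.7% in week 14 mice. On TPM the week 14 mice lay on both sides of the week 6 range, with 42.4, 20.7 and 42.3 TPM against 28.1 to 37.0 TPM. The log2 fold change against week 6 was 1.07 ± 0.34 (SE) at week 8 (adjusted p = 0.367 by edgeR), 1.64 ± 0.35 at week 10 (0.00874), 1.29 ± 0.34 at week 12 (0.0647) and 1.41 ± 0.34 at week 14 (0.00839). With length removed it was 1.46, 1.06 and 1.00 at weeks 10, 12 and 14, with adjusted p of 0.00362, 0.0494 and 0.024 by limma. The median change of the 500 genes nearest in effective length was 0.29 at week 10 and 0.34 at week 14.

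Cldn7, whose loss in mouse leads to intestinal inflammation, had 532, 576 and 599 CPM at week 6 and 525, 901 and 957 CPM at week 8. It had 1489, 1503 and 1067 CPM at week 10, 1065, 953 and 787 CPM at week 12 and 614, 1949.7 and 2177 CPM at week 14. On CPM every mouse from week 10 on lay above all week 6 knockouts, replicate 1 of week 14 only just. A gap to week 6 in either direction holds for 57.8% of all genes at week 10, 65.6% at week 12 and 40.7% at week 14. On TPM Cldn7 overlapped week 6 at week 14, with 797, 810 and 1116 TPM against 776 to 862 TPM. Against week 6 its log2 fold change was 1.25 ± 0.36 at week 10 (adjusted p = 0.0282 by edgeR), 0.72 ± 0.36 at week 12 (0.175) and 1.47 ± 0.37 at week 14 (0.00917). Genes of like length had medians of 0.64 at week 10 and 1.04 at week 14. With length removed the change of Cldn7 was 0.74 at week 10 (adjusted p = 0.0163 by limma) and 0.37 at week 14 (0.15), which ends the week 14 call. The week 10 call of Cldn7 was lost on leaving out any 1 of the week 6 replicates 1, 2 or 3 or the week 10 replicates 1 or 2, with adjusted p between 0.071 and 0.0928 and changes of 1.17 to 1.29.

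Cldn8 had 155, 269 and 204 CPM at week 6, 250.8, 279 and 344 CPM at week 8 and 407, 331 and 282 CPM at week 10. It had 306, 265 and 439 CPM at week 12 and 313, 390 and 552 CPM at week 14. On CPM all mice of weeks 10 and 14 lay above the week 6 range, and replicate 1 of week 14, with its high RIN, was among them. A gap to week 6 in either direction holds for 57.8% of all genes at week 10 and 40.7% at week 14. On TPM both ages overlapped week 6. Cldn8 had 135 to 163 TPM at week 10 and 62.0 to 193 TPM at week 14, against 106 to 175 TPM at week 6. Its log2 fold change was 0.70 ± 0.27 at week 10 (adjusted p = 0.0671 by edgeR) and 1.00 ± 0.27 at week 14 (0.0143). Genes of like length had medians of 0.03 and -0.02, and with length removed Cldn8 was called at both ages, at 0.73 (adjusted p = 0.0438 by limma) and 1.07 (0.0239). On log2(TPM + 1) the week 14 values of Cldn8 and Cldn23 were -0.29 and -0.00, both above that scale's median shift of -0.74.

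Cldn3, a sealing claudin found along the whole gut, had 565, 561 and 650 CPM at week 6, 657, 679 and 626 CPM at week 10 and 540.1, 681 and 836 CPM at week 14, and the groups overlapped. Its log2 fold change was 0.14 ± 0.24 at week 10 (adjusted p = 0.64 by edgeR) and 0.21 ± 0.24 at week 14 (0.461). Short genes as a class were higher at these ages, and with length removed Cldn3 stood at -0.33 at week 10 (adjusted p = 0.252 by limma) and at -0.68 at week 14 (0.0304). Cldn4 varied widely within groups. At week 10 it had 210.0 CPM in replicate 1 and 38.9 and 31.6 CPM in the other mice, and at week 14 it had 40.0, 123 and 275 CPM, against 58.03, 48.2 and 48.4 CPM at week 6. Its log2 fold change was 0.86 ± 0.63 at week 10 (adjusted p = 0.29 by edgeR) and 1.499 ± 0.64 at week 14 (0.0731), and with length removed it was 0.12 and 0.79, not called. The mice with the 3 highest Cldn4 values on CPM were the 3 with the highest sums of the neutrophil genes S100a8 and S100a9. These sums were 4829 CPM in the week 10 mouse and 15073 and 9788 CPM in those of week 14. They were 0.219 to 179 CPM in the other 15 libraries. Both of these week 14 mice had a low RIN, 6.5 and 5.8. The other 9 listed leukocyte markers summed to 297 CPM in that week 10 mouse and to 199 and 184 CPM in those of week 14, within the 112 to 317 CPM of the other libraries, and no leukocyte marker was at 0 in all mice of a group. On TPM the match did not hold. Cldn4 stood at 33.5, 26.5 and 79.8 TPM at week 14, against 54.2, 42.6 and 45.1 TPM at week 6. Week 10 replicate 1 had 110 TPM and WT replicate 1 had 78.6 TPM. The part of neutrophils in the Cldn4 values was not tested.

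The pore-forming claudins gave no call on CPM at any age. Cldn2, the channel former of crypt cells, had 165, 181 and 152 CPM at week 6 and 155, 102 and 153 CPM at week 8. It had 82.2, 102 and 144 CPM at week 10, 107, 92.4 and 183 CPM at week 12 and 178, 58.1 and 63.3 CPM at week 14. On CPM week 10 lay below week 6 in every mouse, and replicate 1 of week 14 lay within the week 6 range while the other 2 lay below it. A gap to week 6 in either direction holds for 57.8% of all genes at week 10. On TPM all mice of weeks 10, 12 and 14 lay below week 6. Replicate 1 of week 14 did so narrowly, at 83.4 TPM against 85.0 to 98.5 TPM. The log2 fold change was -0.60 ± 0.38 at week 10 (adjusted p = 0.225 by edgeR), -0.38 ± 0.38 at week 12 (0.465) and -0.73 ± 0.38 at week 14 (0.126). With length removed these values were -0.46, -0.25 and -0.57, none called.

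Cldn15, which forms sodium-permeable channels in the intestine, had 25.97, 14.9 and 20.1 CPM at week 6, 19.3, 26.3 and 15.2 CPM at week 8 and 7.19, 11.5 and 17.9 CPM at week 10. It had 22.9, 23.96 and 25.4 CPM at week 12 and 26.2, 16.0 and 16.7 CPM at week 14. Its low point was thus week 10, where it overlapped week 6. The log2 fold change at week 10 was -0.74 ± 0.32 (adjusted p = 0.089 by edgeR). Genes of like length had a median of 0.29 there, and with length removed Cldn15 was called lower, at -0.97 (adjusted p = 0.0423 by limma). At week 12 it stood at 0.25 ± 0.31 and at week 14 at -0.05 ± 0.31.

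As a share of the summed TPM of the 7 member claudins, Cldn2 and Cldn15 made up 6.08%, 5.79% and 4.82% in the week 6 knockouts and 5.74%, 2.63% and 3.49% in those of week 8. They made up 1.47%, 1.71% and 3.18% in week 10 mice, 2.64%, 2.45% and 4.75% in week 12 mice and 5.57%, 0.886% and 0.85% in week 14 mice. Every week 10 and week 12 mouse was below the week 6 knockouts, and at week 14 replicate 1 was within their range. The 3 WT mice had 4.79%, 4.66% and 5.22%, against which the week 6 knockouts overlapped. Over the same libraries Cldn7 took 40.3% to 40.8% of claudin TPM in week 6 knockouts, 54.6% to 61.8% in week 10 mice and 42.3%, 69.8% and 63.6% in week 14 mice. On CPM, which is not per length, the mean share of the pore formers was 11.4% in week 6 knockouts, 4.72% in week 10 mice, 6.94% in week 12 mice and 5.26% in week 14 mice (2.10% without replicate 1). No p is given for a share over the members, and Cldn2 is among the longer and Cldn7 the shortest of the set.

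**Figure D3:**
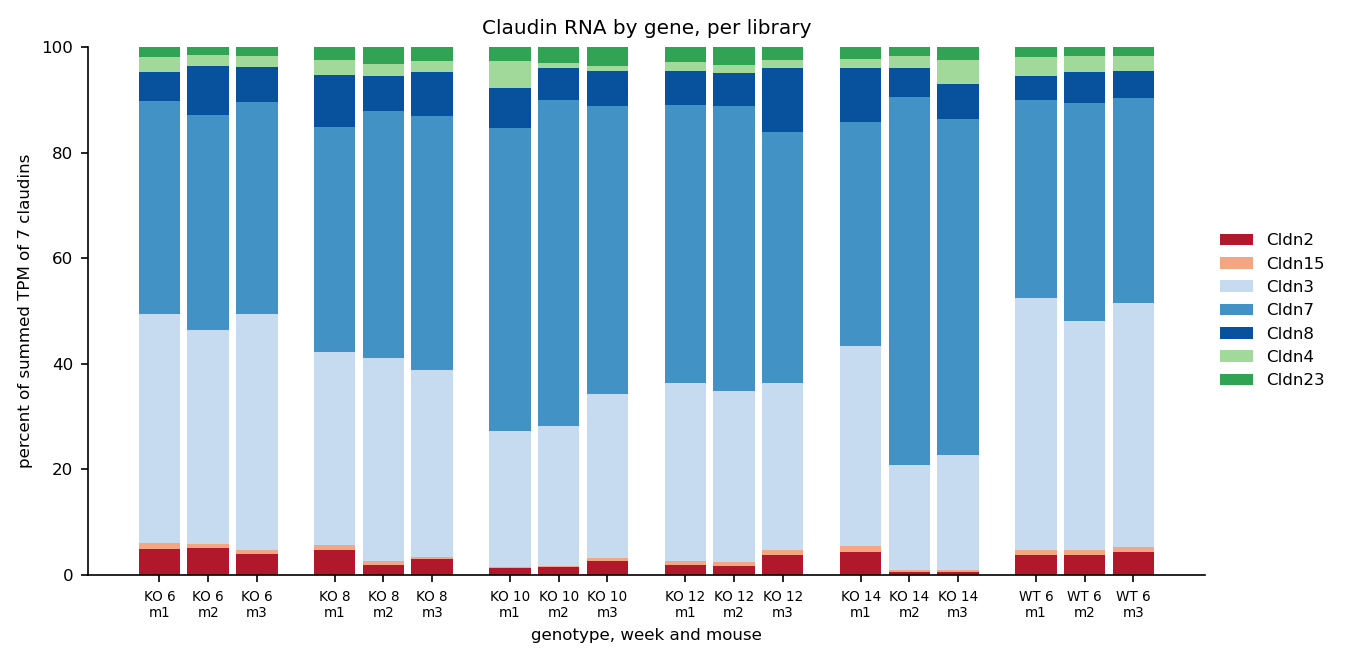
Share of each of the 7 claudins in their summed TPM (y axis, percent) in every library (x axis: genotype, week and mouse). The red segments, Cldn2 and Cldn15, come down to 0.85% in a week 14 knockout, against 6.08% in a week 6 knockout, and the Cldn7 segment is widest in replicate 2 of week 14 at 69.8%.

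Ocln fell at week 10 and at week 14. Occludin had 165, 196 and 174 CPM at week 6, 138, 135 and 171 CPM at week 8 and 95.0, 94.3 and 91.3 CPM at week 10. It had 117, 126 and 134 CPM at week 12 and 154, 86.1 and 120.2 CPM at week 14. All mice from week 10 on lay below the week 6 range, on CPM and on TPM. On CPM a gap to week 6 in either direction holds for 57.8% of all genes at week 10, 65.6% at week 12 and 40.7% at week 14. Ocln changed by a log2 fold change of -0.93 ± 0.20 at week 10 (adjusted p = 0.0099 by edgeR), -0.51 ± 0.20 at week 12 (0.119) and -0.57 ± 0.20 at week 14 (0.0418). Genes of like length had medians of -0.08 at week 10 and -0.33 at week 14. With length removed Ocln stood at -0.74 at week 10 (adjusted p = 0.00403 by limma) and at -0.22 at week 14 (0.224), which ends the week 14 call.

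Tjp1, the longest member, was called lower at week 14 on CPM. It had 154, 165 and 148 CPM at week 6, 161, 98.7 and 178 CPM at week 8 and 75.9, 80.3 and 149 CPM at week 10. It had 71.3, 76.5 and 86.4 CPM at week 12 and 127, 28.6 and 34.4 CPM at week 14, where the 2 low values are those of the low-RIN libraries. For Tjp1 the log2 fold change was -0.61 ± 0.44 at week 10 (adjusted p = 0.278 by edgeR), -0.99 ± 0.44 at week 12 (0.14) and -1.29 ± 0.44 at week 14 (0.0389). Genes of like length had medians of -0.87 at week 10 and -1.11 at week 14. With length removed Tjp1 stood at 0.18 at week 10 and at -0.29 at week 14 (adjusted p = 0.377 and 0.137 by limma), and it was called at no age. F11r was not called at any age on CPM: it had 199.5, 259.6 and 221 CPM at week 6, 316, 263 and 226 CPM at week 10 and 242, 298 and 419 CPM at week 14, and with length removed its changes were 0.00 and 0.06.

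**Figure D4:**
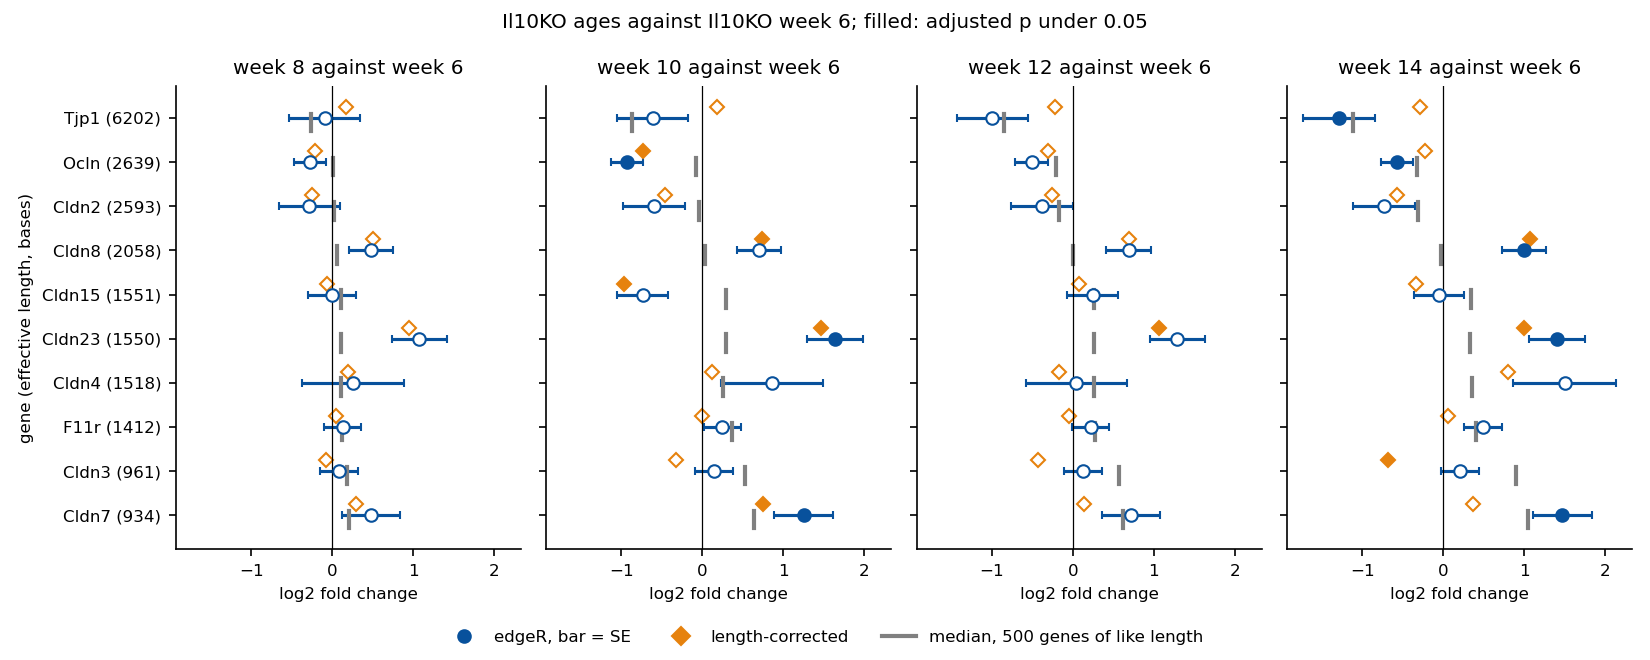
Log2 fold change against Il10KO week 6 (x axis) of the 10 members, ordered by effective length (y axis), at weeks 8, 10, 12 and 14. Circles are edgeR estimates with SE bars, diamonds the estimates with length removed, grey ticks the median of the 500 genes nearest in length, and filled symbols an adjusted p under 0.05; at week 14 the grey ticks run from 1.04 beside Cldn7 to -1.11 beside Tjp1.

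Over the whole set, the fit with length removed called 3 members higher (Cldn7, Cldn8 and Cldn23) and 2 lower (Ocln and Cldn15) at week 10, where 30.6% of all genes were called. It called Cldn23 alone at week 12 (3.58% of all genes), and at week 14 Cldn8 and Cldn23 higher and Cldn3 lower (35.9%). On CPM, edgeR called 0 members at week 8, where 0.0675% of all genes were called; DESeq2 also called 0, and Cldn23 alone had an unadjusted p under 0.05 (0.00635). It called 0 at week 12, where 1.85% of all genes were called; Cldn8, Cldn23, Ocln and Tjp1 had an unadjusted p under 0.05, and DESeq2 called Cldn23 and Ocln. Between week 10 and week 8 and between week 12 and week 10 it called 0 members, with 0.196% and 0.448% of all genes called. Unadjusted p was under 0.05 for Cldn7, Cldn15 and Ocln in the first of these and for Cldn15 in the second, and DESeq2 called Ocln in the first (-0.66) and 0 members in the second. The test of any difference among the 5 ages called Cldn7, Cldn23 and Ocln (adjusted p = 0.034, 0.0249 and 0.0261 by edgeR) and 27.4% of all genes. With age held fixed, the slope on log10 lipocalin, a protein of inflamed gut that the labels give in ng/g for each Il10KO mouse, called no member by edgeR or DESeq2 and 0% of all genes, with 119 genes at an unadjusted p under 0.05.

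These calls rest on few mice. The counts below stand without the share of all genes called in the same setting. They describe how the calls moved and are not read as particular to the members. With cage as a factor, which compares mice within cages, no member was called at week 10 (Cldn7 0.97, Cldn23 1.46 and Ocln -0.83, adjusted p = 0.154, 0.0765 and 0.071 by edgeR) or week 14. At week 10 the count was 5 without week 10 replicate 3 and 2 without any other single library of the comparison. Among the 5 ages it was 0 without any 1 week 6 library, 1 without week 10 replicate 2 or week 14 replicates 2 or 3, and 7 without week 14 replicate 1. At week 14 it was 2, 3 and 2 without week 6 replicates 1, 2 and 3. Leaving out week 14 libraries gave 8 without replicate 1, 3 without replicate 2 and 0 without replicate 3. It gave 0 without both libraries of low RIN, where 1 mouse stands for week 14 and is assumed to vary like the other groups.

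Members of nearly equal effective length were also set against each other within each library. Effective length was matched as a mean over all libraries, so it need not cancel within each one. On TPM, Cldn7 over Cldn3 stood at 1.12, 3.50 and 2.91 in week 14 mice. Cldn7 over Cldn3, as a ratio of CPM, stood at 0.943, 1.03 and 0.922 in week 6 knockouts and at 1.206, 1.17 and 1.397 in those of week 8. Week 10 mice had ratios of 2.27, 2.22 and 1.70, week 12 mice of 1.4, 1.49 and 1.46 and week 14 mice of 1.14, 2.87 and 2.60, so that all mice from week 8 on lay above the week 6 knockouts. WT mice had ratios of 0.783, 0.96 and 0.839. Cldn23 over the pore-forming Cldn15 stood at 1.52, 2.18 and 2.02 in week 6 knockouts and at 2.46, 4.02 and 5.53 in those of week 8. It reached 14.96, 10.8 and 6.61 in week 10 mice, followed by 4.49, 4.45 and 2.59 in week 12 mice and 1.98, 6.13 and 8.92 in week 14 mice; replicate 1 of week 14 alone overlapped week 6. Cldn23 over Cldn4, of 1518 bases, stood at 0.681, 0.674 and 0.839 in week 6 knockouts. It lay above them in all mice of week 8 (0.93, 1.458 and 1.366) and week 12 (1.654, 2.048 and 1.453). It overlapped them in week 10 mice (0.512, 3.195 and 3.735) and week 14 mice (1.29, 0.8002 and 0.542). Cldn2 over Ocln, by contrast, stood at 0.995, 0.923 and 0.874 in week 6 knockouts, at 0.865, 1.08 and 1.58 in week 10 mice and at 1.16, 0.675 and 0.527 in week 14 mice, with overlap at both ages. No p is given for these ratios; an exact permutation test of 3 mice against 3 cannot go below 0.1.

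**Figure D5:**
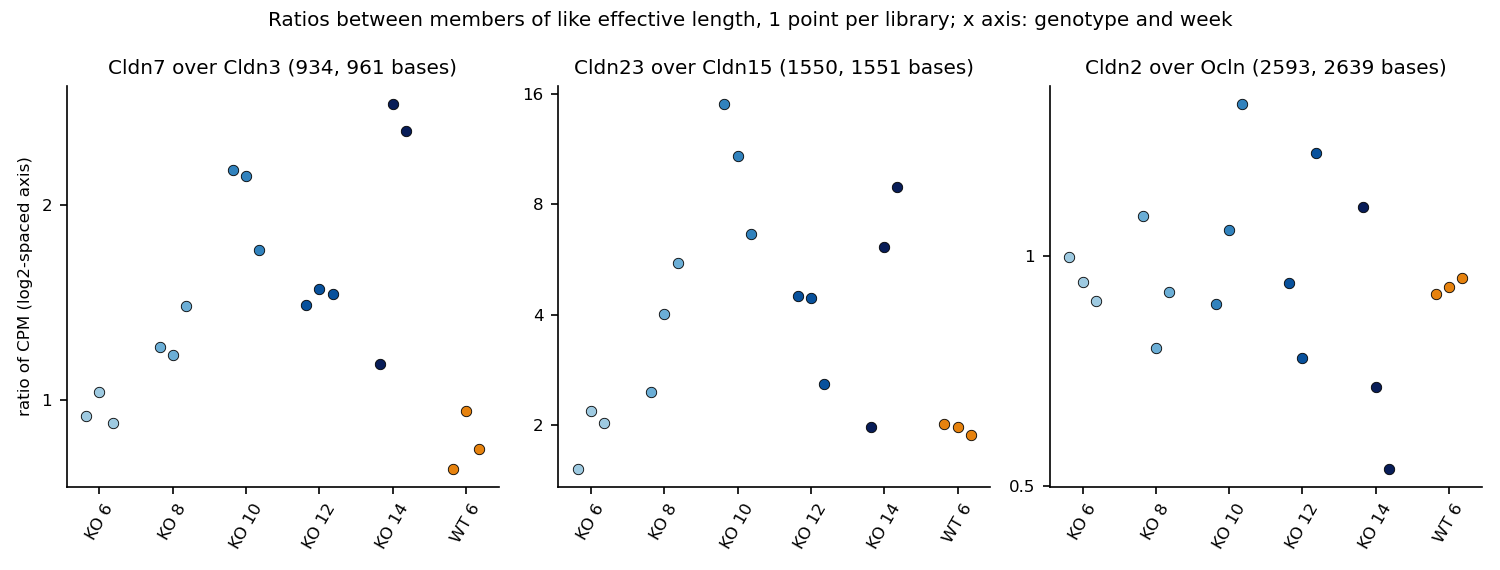
Ratio of CPM between 2 members of like effective length (y axis, spaced by log2) in each library, by genotype and week (x axis). Cldn23 over Cldn15 lies between 6.61 and 14.96 at week 10, against 1.52 to 2.18 in the week 6 knockouts, and Cldn2 over Ocln shows no such gap.

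The transcript tables show which RNA carried each gene. Cldn3, Cldn4, Cldn8 and Cldn23 each had 1 transcript above 1% of the gene, and Cldn2-201 held 93.4% of mean Cldn2 TPM. For Ocln, the share of Ocln-201, 2839 bases long, was 59.9%, 4.41% and 7.69% at week 14, against 63.3%, 50.3% and 63.7% at week 6. The shorter Ocln-203, of 1950 bases, took 9.75%, 66.4% and 64.4% at week 14, against 3.45%, 19.4% and 6.23% at week 6. F11r-203, a retained-intron transcript of 678 bases, took 43.2%, 62.6% and 62.4% of F11r TPM at week 14, against 38.9%, 41.4% and 40.9% at week 6. In both genes the shorter RNA took a larger share in the 2 low-RIN libraries. Cldn7-204 took 5.84%, 17.6% and 17.5% of Cldn7 TPM at week 10, against 3.53% to 5.19% at week 6. The split of Cldn15 between Cldn15-201 and Cldn15-202, which differ little in length, varied without order (Cldn15-202 from 0% to 96.8% over all libraries), so its transcripts are not compared.

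Set against the epithelium on CPM, Cldn23 and Cldn7 were still above week 6 and Ocln below it. These values were not corrected for length, and with length removed the week 14 changes of Cldn7 and Ocln were not called. The 12 epithelium markers summed to 12983 to 17504 CPM at week 10 and 14891 to 17354 CPM at week 14, against 13354 to 16027 CPM at week 6, and none was at 0. With length removed, 1 of the 12 was higher and 3 lower at week 10, and 0 were higher and 3 lower at week 14. Relative to the mean log2 CPM of these markers, the mean of Cldn23 was 1.66 above week 6 at week 10 and 1.44 above at week 14. Cldn7 was 1.26 and 1.43 above, and Ocln was at -0.91 and -0.45. Relative to Epcam alone, the week 14 values were 0.94 for Cldn23, 0.93 for Cldn7 and -0.95 for Ocln. Fibroblast markers fell in 5 of 7 at week 10 and 3 of 7 at week 14, endothelial markers in 4 of 10 at both ages, and 1 endothelial marker rose at week 14. Surface colonocyte markers fell in 3 of 9 at week 10, with 1 higher, and in 2 of 9 at week 14, with 1 higher; their sums were 2228 to 4241 CPM at week 10, against 4289.8 to 5677 CPM at week 6. With length removed, fibroblast markers were lower in 4 of 7 at week 10 and 2 of 7 at week 14, endothelial markers in 6 of 10 at both ages, and surface colonocyte markers in 3 of 9 and 4 of 9; 1 surface colonocyte marker was higher at week 10 and none of the 3 lists had a higher one at week 14. Cell proportions were not estimated.

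Of 18 other claudins listed, 9 were measured above the filter. At week 10, 2 were higher and 2 lower, with a median log2 change of 0.30, against 0.015 over all genes; with length removed the median turned to -0.60, with 2 higher and 3 lower. Cldn14, a sealing claudin, had 6.34, 10.0 and 6.32 CPM at week 10, against 3.64, 2.37 and 2.85 CPM at week 6 (log2 fold change 1.36 ± 0.40, adjusted p = 0.0285 by edgeR). Cldn1, a sealing claudin best known from skin, had 1.69, 1.40 and 1.84 CPM at week 10, against 6.76, 4.77 and 5.58 CPM at week 6 (-1.79 ± 0.50, adjusted p = 0.0237 by edgeR). Both calls held with length removed, at 0.85 and -1.46. The other 2 called, Cldn34c1 (higher) and Cldn11 (lower), were below 0.5 CPM in every week 10 and week 6 knockout, so no fold is given. At week 14, 3 other claudins were higher and 0 lower, and 2 and 0 with length removed.

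Among 32 other junction proteins tested, 2 were higher and 6 lower at week 10 (median -0.43) and 3 higher and 4 lower at week 14 (median -0.57, against -0.06 over all genes). Prkcz, an atypical protein kinase C of the polarity complex, had 20.5, 19.8 and 25.1 CPM at week 10, against 71.0, 59.7 and 60.1 CPM at week 6 (-1.55 ± 0.25, adjusted p = 0.00315 by edgeR). Crb3, an apical polarity protein, went the other way, with 118, 108 and 82.4 CPM at week 10, against 38.6, 33.0 and 40.4 CPM at week 6 (1.46 ± 0.46, adjusted p = 0.0353 by edgeR). With length removed the values at week 10 were -1.46 for Prkcz and 0.79 for Crb3, both called. With length removed the list as a whole had 4 higher and 3 lower at week 10 and 3 higher and 5 lower at week 14. Of 16 proteins of adherens junctions and desmosomes, 0 were called at week 10 (median -0.56) and 2, Dsp and Jup, were lower at week 14; with length removed 1 was higher at week 10 (median -0.17) and 8 were lower at week 14 (median -0.62).

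Genes known to act on claudins were counted as well. For comparison with these and the earlier lists, edgeR called 14.6% of all genes higher and 9.48% lower at week 10. At week 14 it called 24.5% higher and 8.56% lower. The fit with length removed called 30.6% and 35.9% of all genes at these ages, both directions together. Of 19 cytokines and receptors tested that act on claudins in cultured epithelium, 13 were higher and 0 lower at week 10, and 11 higher and 1 lower at week 14. With length removed these counts were 11 and 0 at week 10 and 11 and 1 at week 14. Tnf had 28.9, 31.7 and 18.6 CPM at week 10, against 0.398, 0.411 and 0.282 CPM at week 6 (6.17 ± 1.00, adjusted p = 0.00304 by edgeR). Il1b had 369, 47.1 and 16.0 CPM at week 10, against 2.42, 1.30 and 3.10 CPM at week 6. Replicate 1 of week 14 had 1.48 CPM of Tnf and 3.21 CPM of Il1b. Of 11 genes of aldosterone-responsive sodium uptake, the process that claudin 8 accompanies in the distal colon, 0 were higher and 3 lower at week 10 (median -0.76); with length removed 5 were lower at week 10 and 5 at week 14. Scnn1b, a subunit of the epithelial sodium channel, had 2.27, 6.11 and 9.72 CPM at week 10, against 18.1, 30.1 and 19.1 CPM at week 6 (-1.89 ± 0.55, adjusted p = 0.0272 by edgeR), while Cldn8 was not lower at that age. Of 16 myosin and protease regulators of junctions, 2 were higher and 2 lower at week 10, and 5 and 2 with length removed. Prss8, a membrane protease, had 19.5, 18.7 and 20.0 CPM at week 10, against 26.5, 46.9 and 41.2 CPM at week 6 (-0.98 ± 0.22, adjusted p = 0.0105 by edgeR). Of 14 epithelial transcription factors tested, 2 (Hnf4g and Gata6) were lower at week 14, and 8 were lower with length removed.

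The genes whose log2 CPM was most like that of Cldn2 over the 18 libraries, among 12363 compared, were Nt5dc3, Srgap1, Zmym4, Xpr1 and Creb3l1 (Pearson r of 0.96, 0.96, 0.95, 0.95 and 0.95). For Cldn15 they were Pyroxd2, Pkdcc, Klhl36, Trim46 and Hoxa11, with r of 0.88 to 0.84. The points share their library, and with it RIN, depth and the length pattern described above, so these values describe likeness across libraries only.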

How the data were processed

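RNA from the distal colon was sequenced as polyadenylated RNA with paired-end reads, per the labels' protocols. FastQC, kallisto and mm10 are named in the submitters' processing notes, with no versions; the annotation release is not given in the sources used here. The deposited gene table holds estimated counts from the authors, rounded to whole numbers, with a lowest sum of 50 over the 18 libraries; the largest difference of a member from its deposited transcript sum was 0.13%. The authors' TPM tables give levels per length. Positions and transcript names came from GENCODE M21 on GRCm38, which matched 97.7% of transcript IDs.

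Counts were fitted with edgeR 4.0.16 (R 4.3.3): TMM scaling, filterByExpr (16300 genes), 1 mean for each of the 6 groups over all 18 libraries, quasi-likelihood F-tests and Benjamini-Hochberg adjustment over all genes at 0.05. The SE of a log2 fold change came from its F value and shares the spread of all groups. CPM are TMM-scaled. DESeq2 1.42.0 and limma 3.58.1 gave alternatives. For the fit with length removed, each library's deviation in log2 CPM was smoothed on log2 effective length (lowess, span 0.3) and subtracted before limma; it was chosen after seeing the data. The scripts were tested on simulated data. Summaries used Python 3.11.15 with pandas 2.3.3, and figures matplotlib 3.10.9.

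The members and gene lists were chosen with earlier results of these data known. All members are named; genes of each other list are named from the 4 called genes of largest change in a comparison, and for Cldn2 and Cldn15 the 5 genes of highest Pearson r; the likeness of Cldn8 and the week 10 count of transcription factors are not reported here. Nothing beyond separate mice is said of the replicates. Groups came from the sample titles.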

Additional observations from a re-analysis of the deposited data

How the results depend on the processing

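The counts below are given without the share of all genes called in the same setting, so they are not read as particular to the members. Of the 10 members, the number called changed with the setting as follows. At week 10 against week 6 (3 called) it was 0 with cage as a factor, 6 without the 2 libraries of RIN under 7, 6 without week 14, 5 with length removed, and 2 to 5 on leaving out 1 library. At week 12 (0 called) it was 2 by DESeq2, 5 with RIN as a covariate, 5 with only the groups compared, 5 without the RIN under 7 libraries, 5 without week 14, 5 by voom with a weight per group, 1 against WT and 1 with length removed. At week 14 (5 called) it was 1 by library size, 0 with RIN, 0 with cage, 0 with only the groups compared, 0 without the RIN under 7 libraries, 1 by voom, 3 with length removed, and 0 to 8 on leaving out 1 library (2, 3 and 2 without week 6 replicates 1, 2 and 3). At week 8 (0 called) it was 1 with RIN. Between weeks 10 and 8 (0 called) it was 1 by DESeq2, 1 with RIN, 2 without the RIN under 7 libraries and 2 without week 14. Among the 5 ages (3 called) it was 5 by DESeq2, 0 by library size, 0 with cage, 0 with only the groups compared, and 0 to 7 on leaving out 1 library. Fewer samples estimate the spread where groups are left out; the cause of the other changes was not tested. At week 14 Cldn8 was reversed at -0.29 on both log2(TPM + 1) and log2(TPM + 0.1), and Cldn23 at -0.00199 and -0.00406. On CPM in place of TPM the mean share of Cldn2 and Cldn15 was 11.4%, 8.25%, 4.72%, 6.94% and 5.26% at weeks 6, 8, 10, 12 and 14 in Il10KO mice, and 10.6% in WT mice. The median of all genes shifted by -0.34, -0.37 and -0.74 at weeks 10, 12 and 14 on log2(TPM + 1). The replicate numbers of the titles share only a number (correlations of deviations from -0.25 to 0.24); with them as a block 3 members were called at week 10, 5 at week 14 and 2 among the ages. The number of mice, 3 a group, limits the calls.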

Other observations

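Genes of the junction outside the 10 members showed later changes too. Cldn14 had 6.19, 17.0 and 21.2 CPM at week 14, against 3.64, 2.37 and 2.85 CPM at week 6 in Il10KO mice, a log2 fold change of 2.32 ± 0.41 (SE, adjusted p = 0.00616 by edgeR) and 1.28 with length removed (adjusted p = 0.0239 by limma). All 3 week 14 mice were above the week 6 range, the one of high RIN included, and the 3 week 12 mice had 11.1, 7.05 and 8.79 CPM. Prkcz had 56.0, 27.3 and 33.8 CPM at week 14, against 71.0, 59.7 and 60.1 CPM at week 6 (-0.70 ± 0.25, adjusted p = 0.0433 by edgeR), and its lowest values were those of week 10. Crb3 had 42.9, 223 and 207 CPM at week 14, against 38.6, 33.0 and 40.4 CPM at week 6; its log2 fold change was 2.08 ± 0.47 (adjusted p = 0.00652 by edgeR), and 0.48 with length removed (adjusted p = 0.079 by limma).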
